A study of Mus musculus with 14 samples.

Results

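The bHLH-PAS proteins are transcription factors named for a basic helix-loop-helix region that contacts DNA and for paired PAS domains that bind a partner or a small ligand. Beside ARNT2, the factor named in the title of the series, 8 other genes of the family were examined: Arnt, Npas1, Npas2, Npas3, Hif1a, Epas1, Hif3a and Ahr. They were found by matching these symbols to the Ensembl identifiers of the deposited count tables, and they make up 8 of the 53465 genes counted. RNA was taken from a midline part of frontal cortex, the anterior cingulate, in the inbred strains AKR/J (AKR) and C57BL/6NJ (B6N), with no engineered allele named in the labels. Mice were naive (AKR, 4 libraries; B6N, 4 libraries) or had gone through observational fear conditioning, in which a mouse watches another receive shocks (OFL in the labels; 3 libraries per strain). The labels give no age, sex or sampling time, and they are silent on whether each library is its own animal, so that p-values measure the spread between libraries, which may be technical.

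Members of the family act as pairs. ARNT is the general partner: it joins the hypoxia-inducible factor (HIF) alpha subunits and the aryl hydrocarbon receptor AHR on DNA. The HIF alpha subunits, HIF1A, EPAS1 (also called HIF2A) and HIF3A, are hydroxylated by the EGLN prolyl hydroxylases when oxygen is present and are then taken up by the VHL ubiquitin ligase and destroyed, so their protein level is set largely after translation. AHR is held in the cytoplasm by chaperones that include HSP90 and p23 (Ptges3) until a ligand binds. NPAS2 is the close relative of CLOCK and pairs with BMAL1 (Arntl) to drive Per, Cry and Nr1d genes. NPAS1 and NPAS3 are neuronal members, and NPAS1 is known from GABAergic neurons. AKR and C57BL/6 mice are known to carry different alleles of Ahr.

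On the mouse build GRCm38, Npas1 (ENSMUSG00000001988) lies at chr7:16455721-16477728 on the minus strand and Hif3a (ENSMUSG00000004328) at chr7:17031507-17062427, also on the minus strand, with 554 kb between them. The other members are spread over the genome: Npas2 (ENSMUSG00000026077) at chr1:39193731-39363236, Arnt (ENSMUSG00000015522) at chr3:95434388-95497240, Npas3 (ENSMUSG00000021010) at chr12:53248677-54072175, Hif1a (ENSMUSG00000021109) at chr12:73901375-73947530 and Epas1 (ENSMUSG00000024140) at chr17:86753700-86833410, all on the plus strand, and Ahr (ENSMUSG00000019256) at chr12:35497974-35535038 on the minus strand. Npas3 is the longest, at 823.5 kb, and Npas1 the shortest, at 22.0 kb. Exons of Npas3, Hif1a and Ahr share bases with an exon of another gene on the opposite strand, over 1.38%, 5.60% and 2.06% of their exonic length, and 2.51% of the Hif1a exons also lie in a gene of the same strand. Whether the counting used strand is not given in the sources used here. These other genes held at most 32 reads in a library, against at least 203 for Npas3, Hif1a and Ahr.

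RefSeq's promoter table for GRCm38.p6 matched 6 of the 8 members, and those of Epas1 and Ahr were not matched. The 250 bases before the RefSeq start are given for the 4 matched genes whose levels differed between the naive strains, to show which letters of known partner motifs stand next to each start. They are the reference (C57BL/6J) sequence and not that of AKR. The windows are chr7:16476781-16477030 (Npas1, minus strand), chr12:53248182-53248431 (Npas3, plus), chr12:73907617-73907866 (Hif1a, plus) and chr7:17062428-17062677 (Hif3a, minus). Capitals mark the letters ACGTG, a core bound by HIF and ARNT dimers, and GCGTG, a core bound by AHR and ARNT, each on either strand. GCGTG can also serve as a core for HIF and ARNT, so these letters do not tell the dimers apart.
Npas1: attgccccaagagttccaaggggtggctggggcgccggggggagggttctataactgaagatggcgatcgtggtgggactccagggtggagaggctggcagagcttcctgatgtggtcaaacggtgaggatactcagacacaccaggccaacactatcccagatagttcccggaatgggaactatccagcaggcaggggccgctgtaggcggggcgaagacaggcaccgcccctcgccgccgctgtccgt
Npas3: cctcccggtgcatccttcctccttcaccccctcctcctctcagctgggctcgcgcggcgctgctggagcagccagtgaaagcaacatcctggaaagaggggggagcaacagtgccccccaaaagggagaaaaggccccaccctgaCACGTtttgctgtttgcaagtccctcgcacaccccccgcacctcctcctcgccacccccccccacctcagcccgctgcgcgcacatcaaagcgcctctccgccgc
Hif1a: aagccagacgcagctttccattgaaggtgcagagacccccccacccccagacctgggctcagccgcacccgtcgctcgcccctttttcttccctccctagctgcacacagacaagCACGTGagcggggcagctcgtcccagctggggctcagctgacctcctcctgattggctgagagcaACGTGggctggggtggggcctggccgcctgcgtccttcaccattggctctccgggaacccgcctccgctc
Hif3a: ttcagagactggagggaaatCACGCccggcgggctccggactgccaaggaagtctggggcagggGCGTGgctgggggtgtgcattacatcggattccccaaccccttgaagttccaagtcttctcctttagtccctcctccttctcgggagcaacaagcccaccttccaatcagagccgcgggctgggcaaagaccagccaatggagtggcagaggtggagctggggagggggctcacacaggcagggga

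Among all 32851 promoter windows of this length, 16.6% held ACGTG and 28.2% held GCGTG on either strand. The Hif1a window held 3 ACGTG matches, of which a pair overlap in the palindrome CACGTG, the E-box letters that CLOCK or NPAS2 with BMAL1 also bind and that 6.02% of windows hold. Npas3 had 1 ACGTG match and Hif3a had 2 GCGTG matches. The Npas1 window held neither set of letters. These are matches of letters in a window and not measured sites.

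Total counts per library were 19073921 to 25780227 in the naive groups and 13487311 to 14526253 in the OFL groups. Every member was counted in every library, from 100 reads (Npas1, in a B6N library after OFL) to 4885 (Epas1, in a naive B6N library), and all 8 passed the filter on low counts in each comparison. The naive and OFL libraries were deposited as separate tables and differ across most of the transcriptome, so that conditioning and library set cannot be told apart. Replication-dependent histone genes had a median log2 difference, OFL minus naive, of 5.50 in AKR and 4.85 in B6N (49 genes), small nucleolar RNA genes 4.99 and 5.02 (139 genes), and protein-coding genes -0.15 in both strains (14928 genes). The summed level of 6 glutamatergic neuron markers ran from 4579.5 to 5123 CPM (counts scaled by library size) over the 8 naive libraries and from 2121 to 2425 CPM over the 6 OFL libraries, and no marker of any cell type list was at 0 in every library. In bulk tissue, fewer cells of a type and less RNA per cell cannot be told apart.

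Levels are given as CPM scaled by TMM factors over all 14 libraries, and levels of different genes are compared per kilobase of exon. Epas1, which is known from vessels and glia, had the highest level per kilobase of the 8 genes in every group, at 27.8 ± 1.64 CPM per kb (SD, n = 4) in naive AKR and 35.2 ± 1.66 (SD, n = 4) in naive B6N. Npas2 followed in the naive libraries, at 15.7 ± 0.326 and 14.8 ± 0.488 CPM per kb (SD, n = 4 each), and then Hif1a at 11.5 ± 0.126 and 10.5 ± 0.321. Arnt stood in the middle, at 7.95 ± 0.207 and 7.83 ± 0.256 CPM per kb. The lowest were Npas3, Ahr and Hif3a, at 2.78 ± 0.157, 2.58 ± 0.0631 and 2.30 ± 0.189 in naive AKR, where the libraries of Npas3 and Ahr overlapped. In naive B6N these 3 genes stood in the reverse order, Hif3a at 3.45 ± 0.160, Ahr at 2.74 ± 0.171 and Npas3 at 1.75 ± 0.0699, with no overlap between neighbours. Npas1 stood above Arnt in naive AKR, at 10.2 ± 0.638 CPM per kb, and below it in naive B6N, at 6.74 ± 0.335.

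In the OFL libraries the order at the top was different. Hif1a stood second, at 17.8 ± 0.298 CPM per kb in AKR and 17.4 ± 0.655 in B6N (SD, n = 3 each), and its B6N libraries overlapped those of Epas1, at 18.7 ± 1.70. In AKR after OFL, Npas3 (4.32 ± 0.301 CPM per kb), Npas1 (3.99 ± 0.347) and Ahr (3.40 ± 0.307) were neighbours that overlapped. Hif3a was lowest in both strains after OFL, at 1.45 ± 0.0988 and 1.22 ± 0.0713 CPM per kb.

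**Figure D1:**
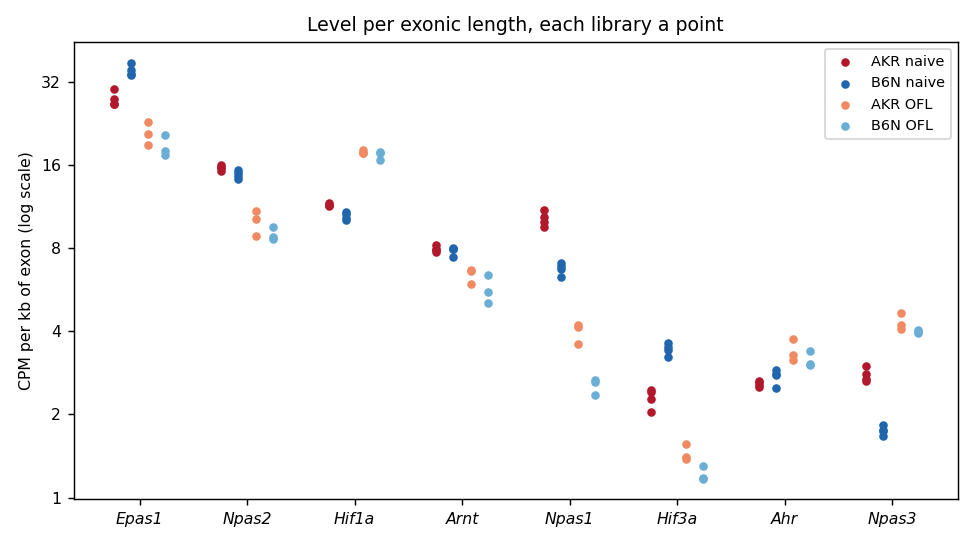
Level of each gene per kilobase of exon (CPM per kb, log2 axis) in every library, with 1 point per library and colours for the 4 groups. Epas1 is at the top in each group, and Npas3 and Hif3a change places between naive AKR and naive B6N.

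The first comparison asked how naive mice of the strains differ. Npas1 and Npas3 were higher in naive AKR by 1.52-fold and 1.59-fold and Hif1a by 1.10-fold, while Hif3a and Epas1 were lower by 1.50-fold and 1.27-fold. Arnt, Npas2 and Ahr did not pass the test. Thus 5 of the 8 genes differed at an adjusted p under 0.05 (edgeR's quasi-likelihood test, Benjamini-Hochberg over 17645 genes), 3 higher and 2 lower in AKR, where 37.7% of all genes tested did (18.4% higher, 19.3% lower). The median log2 difference was 0.05 over the 8 genes and 0.01 over all genes. After OFL, 1 of the 8, Npas1, differed between strains and was higher in AKR, beside 16.8% of all 17994 genes tested (7.76% higher, 9.00% lower), with a median of 0.15 over the 8 and 0.00 over all. Leaving out AKR OFL replicate 2 or B6N OFL replicate 1 raised that count to 3.

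**Figure D2:**
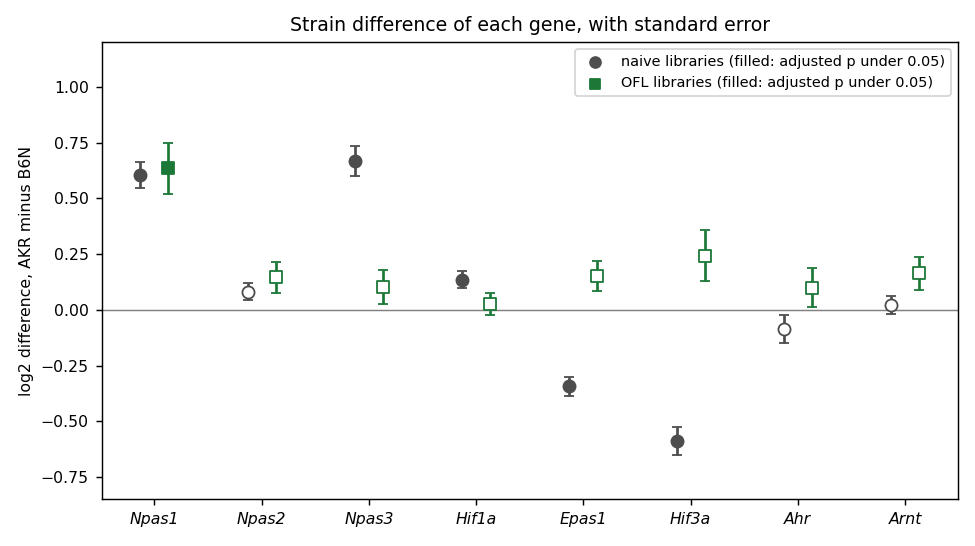
Strain difference of each gene (log2, AKR minus B6N) with its standard error, in naive libraries (circles) and OFL libraries (squares). Filled symbols passed the test; Npas1 is filled in both, and Npas3, Hif1a, Epas1 and Hif3a only among the naive libraries.

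Npas1, the GABAergic neuron member, stood at 30.0, 33.2, 28.7 and 31.2 CPM in the naive AKR libraries and at 20.2, 20.8, 18.9 and 21.2 CPM in the naive B6N libraries. All AKR values lay above all B6N values. The log2 difference was 0.60 (SE 0.06, edgeR adjusted p = 1.58e-08). After OFL its level was 12.7, 10.8 and 12.5 CPM in AKR and 7.89, 8.05 and 7.08 CPM in B6N. Again the strains did not overlap, and the log2 difference was 0.63 (SE 0.11, edgeR adjusted p = 0.000288). The strain difference of Npas1 changed by 0.04 between the conditions (SE 0.12, edgeR adjusted p = 0.929 for the interaction). Of 8 markers of interneurons, the GABAergic cells of cortex, 2 were higher and 1 lower in naive AKR. These shares are near the 18.4% and 19.3% of all genes. The summed level of the 8 markers was 906 to 985 CPM in naive AKR and 846 to 923 in naive B6N, ranges that overlap. After OFL 5 of the 8 were higher in AKR, beside 7.76% of all genes, and the summed level was 704 to 745 CPM in AKR against 625 to 649 in B6N. The part of interneurons in the Npas1 difference was not tested.

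Npas3, a neuronal member with the largest gene of the set, was at 18.0, 16.9, 16.2 and 15.8 CPM in naive AKR and at 11.0, 10.5, 10.0 and 10.5 CPM in naive B6N. The groups were fully separate, by 0.67 on the log2 scale (SE 0.07, edgeR adjusted p = 6.47e-08). After OFL the AKR libraries held 24.5, 25.4 and 27.9 CPM and the B6N libraries 24.3, 23.7 and 23.9 CPM. These groups still did not overlap, but by a small margin, and the difference of 0.10 (SE 0.08) did not pass the test (edgeR adjusted p = 0.406). The strain difference was thus smaller among the OFL libraries by 0.55 (SE 0.10), and this interaction passed the test (edgeR adjusted p = 0.00044).

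Npas2, the CLOCK relative, differed little between strains. It was at 76.7, 75.0, 72.9 and 75.4 CPM in naive AKR and 73.7, 71.8, 70.1 and 68.2 CPM in naive B6N, with 1 B6N library inside the AKR range (log2 0.08, SE 0.04, edgeR adjusted p = 0.0998). After OFL it was at 52.3, 42.6 and 49.1 CPM in AKR and 45.8, 42.0 and 41.4 CPM in B6N. The low AKR library is replicate 2: the difference was 0.14 (SE 0.07, edgeR adjusted p = 0.19) with it and 0.22 (adjusted p = 0.033) without it.

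Among the HIF alpha subunits, Hif1a had the smallest called difference. Its naive levels were 67.8, 67.1, 67.7 and 68.9 CPM in AKR and 64.0, 59.9, 62.7 and 60.7 CPM in B6N. Every AKR library was higher, by 0.14 on the log2 scale (SE 0.04, edgeR adjusted p = 0.00799). After OFL the strains overlapped, at 107, 104 and 104 CPM in AKR and 98.1, 105 and 105 CPM in B6N (log2 0.03, SE 0.05, edgeR adjusted p = 0.804), and without B6N OFL replicate 1 the sign turned, to -0.01. The interaction was -0.10 (SE 0.06, edgeR adjusted p = 0.427).

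Epas1, the subunit known from endothelium and perivascular cells, went the other way in naive mice. It was at 168, 149, 149 and 155 CPM in AKR and at 189, 191, 198 and 209.7 CPM in B6N. The lowest B6N library was above the highest AKR library, and the log2 difference was -0.34 (SE 0.04, edgeR adjusted p = 1.58e-06). After OFL the levels were 128, 106 and 116 CPM in AKR and 115, 101 and 97.0 CPM in B6N, which overlap, with a difference of 0.15 (SE 0.07, edgeR adjusted p = 0.15). Leaving out AKR OFL replicate 2 brought it past the threshold (0.21, adjusted p = 0.0362), as did leaving out B6N OFL replicate 1 (0.22, adjusted p = 0.0114) or the filter on low counts (0.15, adjusted p = 0.0444). The change of the strain difference was 0.50 (SE 0.09, edgeR adjusted p = 0.00184).

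Hif3a, which encodes a subunit with splice forms that restrain the other HIFs, had the pattern of Epas1 in larger size. It was at 16.5, 13.7, 15.2 and 16.2 CPM in naive AKR and at 21.7, 24.3, 23.1 and 23.6 CPM in naive B6N. No library of AKR reached the B6N range (log2 -0.59, SE 0.06, edgeR adjusted p = 2.13e-07). After OFL it was at 9.42, 9.26 and 10.5 CPM in AKR and at 8.71, 7.91 and 7.86 CPM in B6N. AKR was now the higher strain in all 3 libraries, but the difference of 0.24 (SE 0.11) did not pass the test (edgeR adjusted p = 0.166). The interaction of 0.84 (SE 0.13, edgeR adjusted p = 3.62e-05) was the largest of the 8 genes. Deposited counts do not separate the splice forms.

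Markers of the cells in which Epas1 and Hif3a are usually found gave mixed directions between the strains. Of all genes tested, 18.4% were higher and 19.3% lower in naive AKR. In naive libraries 2 of 8 endothelial markers were higher and 3 lower in AKR, with summed levels of 299 to 342 CPM in AKR and 309 to 319 in B6N. Of the 7 pericyte and mural cell markers 3 were higher and 2 lower, with sums of 262 to 303 CPM and 252 to 265 CPM. Astrocyte markers (8 genes) had 1 higher and 3 lower, with sums of 3679 to 4289 CPM in AKR and 4108 to 4482 in B6N. After OFL the endothelial sums were 264 to 275 CPM in AKR and 244 to 253 in B6N, the pericyte and mural cell sums 259 to 268 and 232 to 253, and the astrocyte sums 4566 to 4712 and 5314 to 5432. The sums of the strains overlapped in each of these lists when naive. After OFL the sums were separate, higher in AKR for the endothelial and the pericyte lists and lower for the astrocyte list. Gene by gene the directions stayed mixed after OFL. Higher and lower in AKR were 2 and 1 of 8 endothelial markers (list median 0.02), 3 and 2 of 7 pericyte and mural cell markers (-0.14), and 1 and 3 of 8 astrocyte markers (-0.06). Of all genes 7.76% were higher and 9.00% lower. The part of these cells in the differences of Epas1 and Hif3a was not tested.

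Ahr and Arnt, the ligand-activated receptor and its partner, did not separate the strains. Ahr was at 15.5, 15.8, 16.2 and 16.3 CPM in naive AKR and at 17.8, 15.4, 17.2 and 17.2 CPM in naive B6N (log2 -0.09, SE 0.06, edgeR adjusted p = 0.306). B6N naive replicate 2 was below every AKR library and the other B6N libraries were above them all. After OFL Ahr was at 19.4, 23.1 and 20.3 CPM in AKR and 18.6, 21.0 and 18.8 CPM in B6N (log2 0.10, SE 0.09, edgeR adjusted p = 0.51). Protein, in which the known Ahr alleles differ, was not measured.

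Arnt was at 66.0, 63.0, 63.5 and 62.2 CPM in naive AKR and at 63.4, 63.5, 59.7 and 64.2 CPM in naive B6N (log2 0.02, SE 0.04, edgeR adjusted p = 0.705). After OFL it was at 53.4, 47.6 and 52.9 CPM in AKR and at 51.3, 44.5 and 40.7 CPM in B6N. That difference was 0.16 (SE 0.07, edgeR adjusted p = 0.144), and without B6N OFL replicate 1, the highest of its group, it was 0.26 (adjusted p = 0.0092). The interactions of Ahr (0.19, SE 0.11, edgeR adjusted p = 0.36) and Arnt (0.15, SE 0.08, edgeR adjusted p = 0.356) did not pass. For comparison, the paralog Arnt2, which serves as the partner in neurons, was at 685 to 721 CPM in naive AKR and 434 to 440 in naive B6N, and at 540 to 558 and 310.2 to 322 CPM after OFL. Its strain difference was 0.68 (SE 0.03, edgeR adjusted p = 1.6e-13) in naive and 0.78 (SE 0.04, edgeR adjusted p = 1.61e-12) in OFL libraries. Exons of Arnt2 also share 2.78% of their length with a gene of the opposite strand.

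**Figure D3:**
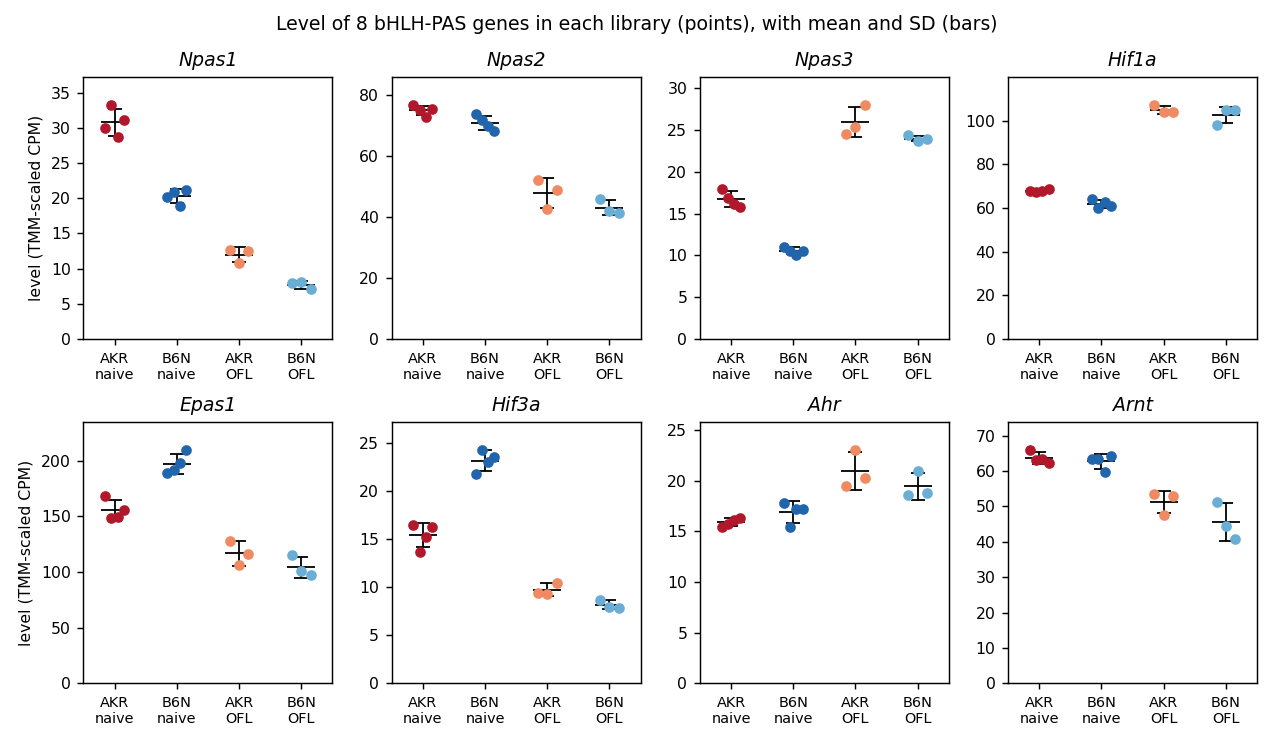
Level of each of the 8 genes (TMM-scaled CPM) in every library (points), with the mean and SD of each group (bars). Npas1 keeps its order of strains in both conditions, and for Epas1 and Hif3a the B6N libraries lie above the AKR libraries when naive but not after OFL.

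Over the 8 genes the interaction, that is the OFL minus naive change in AKR less that in B6N, passed the test for 3: Hif3a and Epas1, whose change was more positive in AKR, and Npas3, whose change was more negative. Over all 20291 genes tested, 5.40% passed (3.74% more positive and 1.66% more negative in AKR). The median interaction was 0.11 over the 8 and 0.01 over all. These 3 calls held in every alternative run. The interaction uses the same libraries as the strain differences above and is not separate evidence of them.

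OFL and naive libraries were then compared within each strain. All 8 genes passed the test in both strains, beside 78.6% of all 20291 genes in AKR (39.8% higher and 38.8% lower after OFL) and 78.4% in B6N (40.0% higher, 38.4% lower), so that the share called is near that of genes at large. The signs were the same in both strains: Npas3, Hif1a and Ahr were higher in the OFL libraries, and Npas1, Npas2, Epas1, Hif3a and Arnt were lower. The median difference was -0.36 in AKR and -0.59 in B6N over the 8, against -0.01 and -0.00 over all genes. Over protein-coding genes, which include the 8, it was -0.15 in both strains. Of the 8, the 3 genes that were higher are also those that share exonic bases with genes of the opposite strand, which held at most 32 reads in a library. Arnt2 shares such bases too, over 2.78% of its exonic length, and was lower, at -0.35 in AKR and -0.46 in B6N. The part of this overlap was not tested.

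Npas1 fell furthest in AKR, at -1.36 on the log2 scale (SE 0.08, edgeR adjusted p = 6.79e-18), and by nearly as much in B6N, at -1.40 (SE 0.09, edgeR adjusted p = 8.98e-17), from means of 30.8 ± 1.92 and 20.3 ± 1.01 CPM (SD, n = 4) to 12 ± 1.04 and 7.67 ± 0.520 CPM (SD, n = 3). Interneuron markers were lower along with it: 5 of 8 passed in that direction and 1 in the other in AKR, and 6 and 1 in B6N, with list medians of -0.28 and -0.38. Of all genes 38.8% in AKR and 38.4% in B6N were lower. Slc32a1, the vesicular GABA transporter, had differences of -1.37 (SE 0.07) in AKR and -1.40 (SE 0.07) in B6N, and Sst, which encodes somatostatin, -1.29 and -1.38 (SE 0.05 each). Adarb2, also an interneuron marker, went the other way, at 0.96 and 1.27 (SE 0.05 each). Lower medians were not particular to this list. They were -0.75 in both strains for glutamatergic neuron markers and -0.46 and -0.52 for microglia markers. Astrocyte markers had medians of -0.12 and -0.19, near the -0.15 of protein-coding genes. Their summed level was higher after OFL, at 4566 to 4712 CPM in AKR against 3679 to 4289 when naive. In B6N it was 5314 to 5432 CPM against 4108 to 4482. The part of any of these cells in the fall of Npas1 was not tested.

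Hif3a fell by 0.66 in AKR (SE 0.09, edgeR adjusted p = 2.49e-08) and by 1.50 in B6N (SE 0.09, edgeR adjusted p = 1.02e-17), the largest change of the 8 in that strain. Epas1 likewise fell by 0.41 in AKR (SE 0.06, edgeR adjusted p = 6.93e-06) and by 0.92 in B6N (SE 0.06, edgeR adjusted p = 4.47e-11). For both HIF genes the larger fall was in B6N, the strain with the higher naive level. Vessel markers were lower in part as well, where 38.8% of all genes in AKR and 38.4% in B6N were lower. Of the 8 endothelial markers 5 were lower and 1 higher after OFL in AKR, and 5 lower and 2 higher in B6N, among them Cldn5, a tight junction gene (-0.87, SE 0.07, and -0.95, SE 0.08), and Ly6c1 (-0.82, SE 0.09, and -1.36, SE 0.09). Of the 7 pericyte and mural cell markers 5 were lower and 2 higher in AKR, and 4 lower and 1 higher in B6N. Astrocyte markers had 4 of 8 lower and 2 higher in AKR, and 5 lower and 3 higher in B6N. Their part in the falls of Epas1 and Hif3a was not tested.

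Npas3 rose by 0.63 in AKR (SE 0.07, edgeR adjusted p = 2.76e-10) and by 1.19 in B6N (SE 0.07, edgeR adjusted p = 6.72e-17), which is 1.55-fold and 2.27-fold. Its larger rise was also in B6N, here the strain with the lower naive level. Hif1a rose by 0.63 (SE 0.04, edgeR adjusted p = 1.2e-15) in AKR and by 0.73 (SE 0.04, edgeR adjusted p = 1.76e-17) in B6N, to 105 ± 1.76 and 103 ± 3.86 CPM (SD, n = 3). Hif1a and Epas1, alternative partners of ARNT, therefore differed in opposite directions between the library sets.

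Npas2 was lower by similar amounts in both strains, at -0.65 in AKR (SE 0.06, edgeR adjusted p = 5.35e-13) and -0.72 in B6N (SE 0.06, edgeR adjusted p = 3.78e-14). Arnt was lower at -0.31 (SE 0.06, edgeR adjusted p = 8.84e-06) and -0.46 (SE 0.06, edgeR adjusted p = 6.4e-09). With library sizes from protein-coding genes only, the AKR difference of Arnt was -0.19. Ahr was higher at 0.40 in AKR (SE 0.08, edgeR adjusted p = 1.45e-05) and 0.20 in B6N (SE 0.08, edgeR adjusted p = 0.0153). The Ahr call in B6N was the least firm of the 16: it was lost when B6N naive replicate 2 (0.16, adjusted p = 0.0616) or B6N OFL replicate 2 (0.14, adjusted p = 0.141) was left out, and with no filter on low counts (0.17, adjusted p = 0.0722), and the difference was 0.30 with protein-coding genes only.

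**Figure D4:**
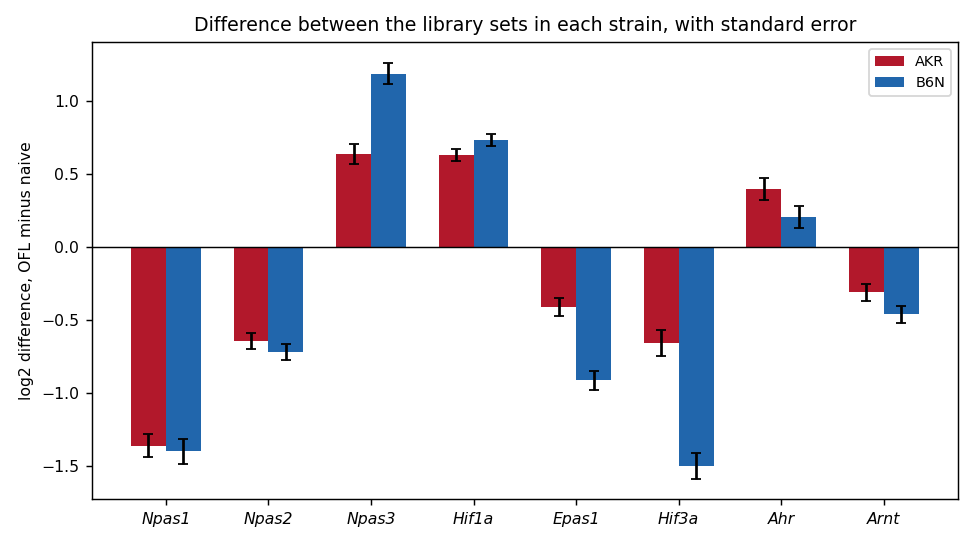
Difference between the OFL and naive libraries of each strain (log2) for each gene, with its standard error as the error bar. Bars point up for Npas3, Hif1a and Ahr in both strains and down for the other 5 genes, and the strains differ most for Hif3a, Npas3 and Epas1.

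The genes around these factors were then described list by list, beginning with the rest of the family. Of 14 bHLH-PAS relatives, 12 were tested. In naive libraries 6 differed between strains, 1 higher in AKR (Arnt2) and 5 lower, among them Per2 (-0.35, SE 0.05, edgeR adjusted p = 2.89e-06) and Arntl, which encodes BMAL1 (-0.40, SE 0.06, edgeR adjusted p = 9.75e-06). Median log2 difference was -0.05 for this list and 0.01 for all genes, of which 37.7% differed. After OFL 4 differed, beside 16.8% of all genes, and these 4 were higher in AKR. Arnt2, Per2 (0.30, SE 0.06) and Per3 (0.18, SE 0.05) had the smallest p, and without B6N OFL replicate 2 the count of 4 was 2. Per2 thus changed sides between the conditions, with an interaction of 0.66 (SE 0.07, edgeR adjusted p = 1.2e-07). Clock, the relative of Npas2, was higher in OFL libraries by 0.92 in AKR (SE 0.05) and 0.87 in B6N (SE 0.04), opposite to Npas2. Npas4, the member induced by neuronal activity, varied widely within groups: 60.7, 59.2, 64.0 and 17.7 CPM in naive AKR, 50.4, 46.4, 37.7 and 39.6 in naive B6N, 16.0, 12.2 and 28.7 in AKR after OFL, and 38.2, 33.9 and 25.4 in B6N after OFL. Its strain difference was 0.20 (SE 0.39, edgeR adjusted p = 0.738) in naive libraries and 0.49 (adjusted p = 0.0014) without AKR naive replicate 4. In OFL libraries it was -0.79 (SE 0.37, edgeR adjusted p = 0.27), -1.22 (adjusted p = 0.00361) without AKR OFL replicate 3, and called when the spread was estimated without edgeR's robust option (adjusted p = 0.0067).

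The RNA of 9 genes of HIF oxygen sensing and turnover was counted, all tested, and the turnover of HIF protein itself was not measured. In naive libraries Egln1, the main oxygen-sensing hydroxylase, was lower in AKR by 0.41 on the log2 scale (log2 -0.41, SE 0.04, edgeR adjusted p = 5.13e-09), with libraries at 81.2 to 85.8 CPM in AKR and 107 to 113 CPM in B6N. Hif1an, whose product hydroxylates HIF at an asparagine, was lower as well (-0.35, SE 0.04, edgeR adjusted p = 2.54e-07), and Egln3 was higher (0.31, SE 0.08, edgeR adjusted p = 0.00467). Those were the 3 called of the 9, beside 37.7% of all genes. After OFL 2 of the 9 were called, beside 16.8% of all genes: Egln3 was higher at 0.56 (SE 0.12, edgeR adjusted p = 0.00188) and Egln1 lower at -0.25 (SE 0.06, edgeR adjusted p = 0.00296). Between the library sets 7 of 9 were lower and 1 higher after OFL in AKR, and 8 lower and 1 higher in B6N, with medians of -0.38 and -0.35. The share called in either direction is near the 78.6% and 78.4% of all genes, of which 38.8% and 38.4% were lower. The interaction with the smallest p in this list was that of Egln1 (0.18, SE 0.06, edgeR adjusted p = 0.101), which passed with protein-coding genes only (adjusted p = 0.0477).

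Among 20 known HIF targets, 18 were tested, and 11 differed between naive strains, 2 higher and 9 lower in AKR, with a median of -0.12. Of all genes 37.7% differed, 18.4% higher and 19.3% lower. Pdk1, which keeps pyruvate out of the mitochondrion, was at 45.3 to 50.0 CPM in naive AKR and 73.9 to 79.6 in naive B6N (log2 -0.65, SE 0.04, edgeR adjusted p = 4.1e-11). Ddit4, an mTOR inhibitor (-0.70, SE 0.06), and Slc2a1, the glucose transporter GLUT1 of the blood-brain barrier (-0.52, SE 0.05), were lower too. Without B6N naive replicate 3 the count was 7. After OFL 6 were called, 2 higher and 4 lower, beside 16.8% of all genes, with a median of -0.02 for the list. Pdk1 (-0.57, SE 0.06, edgeR adjusted p = 2.02e-07) and Ddit4 (-0.51, SE 0.13, edgeR adjusted p = 0.00802) were again lower in AKR. Slc2a1 was at 108 to 120 CPM in naive AKR and 147 to 176 in naive B6N, against 87.6 to 94.3 and 84.7 to 89.1 after OFL, with an interaction of 0.58 (SE 0.07, edgeR adjusted p = 1.54e-06). Against the naive libraries, Bnip3, a mitophagy receptor, was higher after OFL in both strains (1.26 and 1.30, SE 0.05 each) and Ldha, lactate dehydrogenase, lower (-0.67 and -0.68, SE 0.04 each). The list as a whole had 7 higher and 9 lower in AKR and 5 higher and 10 lower in B6N. The share called is near the 78.6% and 78.4% of all genes. The members known as HIF targets thus went in both directions in each comparison. In naive libraries they were less balanced than genes at large, with 9 lower and 2 higher in AKR. DESeq2 called 8 of the 18 there.

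**Figure D5:**
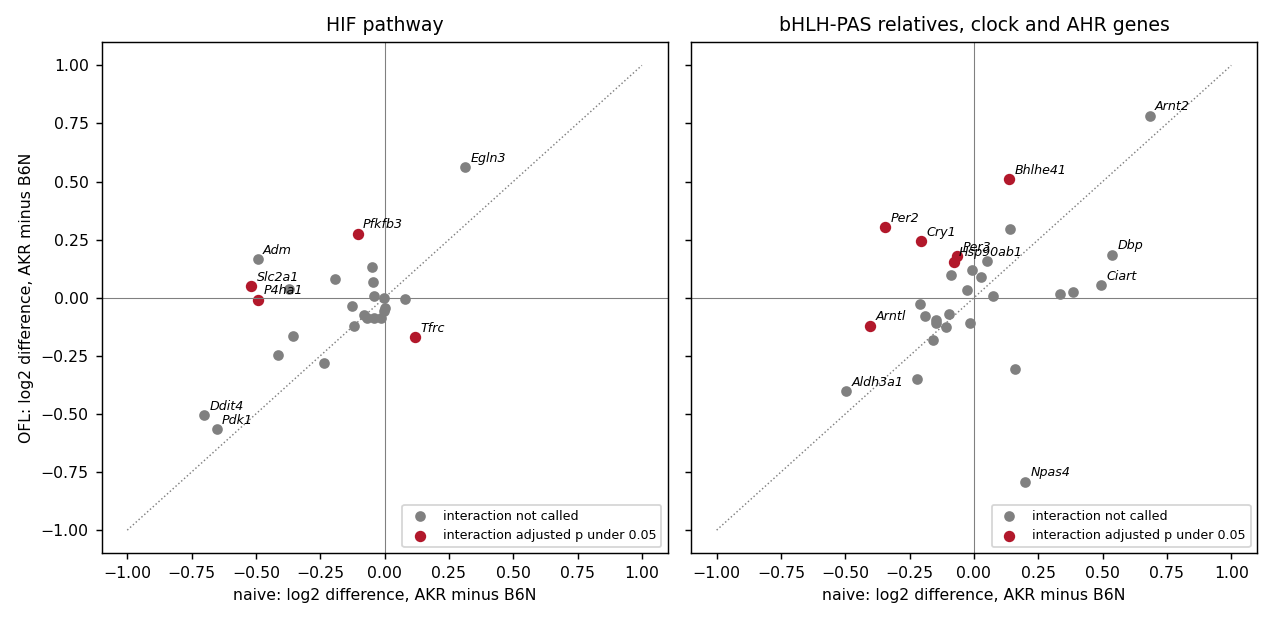
Strain difference (log2, AKR minus B6N) in naive libraries (x axis) and in OFL libraries (y axis) for genes of the HIF pathway (left) and for relatives, clock targets and AHR pathway genes (right), with genes whose interaction passed the test in colour. Points on the dotted line have the same strain difference in both conditions; Per2 lies to the left of zero and above it.

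For AHR, the 4 chaperone genes and 5 of 7 target genes were tested. In naive libraries Ptges3 was lower in AKR (-0.21, SE 0.04, edgeR adjusted p = 0.000221), and so was Hsp90aa1 (-0.11, SE 0.04, edgeR adjusted p = 0.0258), though this call was lost when AKR naive replicate 4 (adjusted p = 0.1), B6N naive replicate 1 (0.122) or B6N naive replicate 3 (0.101) was left out. Hsp90ab1, an HSP90 gene, was lower after OFL at log2 -0.69 in AKR and -0.94 in B6N (SE 0.04 each), with an interaction of 0.24 (SE 0.06, edgeR adjusted p = 0.00504). Of the targets in naive libraries 0 of 5 passed edgeR's test, beside 37.7% of all genes, 0 had an unadjusted p under 0.05 and DESeq2 called 0. The smallest p was that of Aldh3a1 (-0.50, SE 0.25, edgeR adjusted p = 0.134), which passed without B6N naive replicate 3 (adjusted p = 0.0423). Between library sets 1 of the 5 targets was called in AKR and 2 in B6N, all higher after OFL. Of all genes 78.6% and 78.4% were called. The list medians were -0.16 in AKR and 0.27 in B6N. The target called in both strains was Tiparp, an AHR-induced ADP-ribosyltransferase. It was higher after OFL by 1.41 in AKR (SE 0.16, edgeR adjusted p = 7.61e-06) and 1.53 in B6N (SE 0.15, edgeR adjusted p = 2.22e-06). After OFL Tiparp was lower in AKR than in B6N (-0.35, SE 0.09, edgeR adjusted p = 0.0173), a call that was lost in 5 of 15 alternatives, where the adjusted p reached 0.197.

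The 13 targets of CLOCK and NPAS2 with BMAL1 were all tested. In naive libraries 3 were higher and 3 lower in AKR, beside 18.4% and 19.3% of all genes: Dbp (0.54, SE 0.09) and Nr1d1 (0.38, SE 0.05) were higher, and Per2 was lower. After OFL 5 were higher and 1 lower in AKR, beside 7.76% and 9.00% of all genes. Bhlhe41 led them (0.51, SE 0.06, edgeR adjusted p = 3.19e-06), and without B6N OFL replicate 2 the count of 6 was 2. The interaction passed for 4 of the 13, beside 5.40% of all genes, and each of the 4 was more positive in AKR. First by p were Per2, Bhlhe41 (0.38, SE 0.09, edgeR adjusted p = 0.00555) and Per3 (0.26, SE 0.06, edgeR adjusted p = 0.0063). With no filter on low counts it passed for 7, of which 5 were more positive and 2 more negative. Between library sets 5 were higher and 7 lower after OFL in AKR, and 2 higher and 8 lower in B6N, beside 78.6% and 78.4% of all genes called. Hlf, a clock output factor, had the smallest p in both strains (-0.42 and -0.62, SE 0.05 each). Clock targets follow the time of day, which the labels do not give.

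Likeness to other genes was measured as Pearson's r of log2(CPM + 0.5) over the 14 libraries after centring within each condition, among 11382 named protein-coding genes at 5 CPM or more. It is a description that rests mostly on the strain difference in each condition, since libraries of a group share their strain. Npas1 was nearest to Pla2g6 (r = 0.99) and Stard10 (0.98), Npas3 to Mgat5 (0.97) and Snapc4 (0.96), Hif1a to Fam131b (0.97) and Zfp711 (0.93), and Epas1 to Cit (0.95) and Sipa1l1 (0.93). Hif3a was nearest to H2-T24 (0.94) and Spns2 (0.93), Arnt to Atp1b2 (0.98) and Atxn2l (0.96), Npas2 to Fam13c (0.91) and Grip2 (0.91), and Ahr, at lower values, to Tunar (0.86) and Sorcs1 (0.86). Among the 8 genes themselves the highest value was that of Epas1 with Hif3a (0.89), and the lowest that of Npas3 with Hif3a (-0.80).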

How the data were processed

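Bulk RNA sequencing of anterior cingulate cortex gave 14 libraries in 4 groups. Trizol-extracted total RNA went into TruSeq RNA libraries (kit v2), per the labels' protocols. Tools listed in the submitters' processing notes are edgeR, HTSeq, TopHat2 2.1.1, cutadapt 2.7 and CASAVA, with the build GRCm38, and the annotation release and the strand setting are not given in the sources used here. The authors deposited raw counts per Ensembl gene in a table for naive and another for OFL libraries, which were used as they stand. The normalized table of each sample was not used here. GENCODE M21 (GRCm38) named 53274 of the 53465 identifiers.

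Differences were tested with edgeR 4.0.16 (R 4.3.3, limma 3.58.1; quasi-likelihood F-test, robust, two-sided) after edgeR's expression filter and TMM scaling, with Benjamini-Hochberg adjustment over all genes tested and a threshold of 0.05. Each condition had its own fit of the strain difference (AKR minus B6N), and OFL minus naive differences and the interaction in 1 fit of 14 libraries. SE is the standard error of the log2 difference, taken as its size over the square root of F. At these depths edgeR's common coefficient of biological variation came to 0.0446 for naive, 0.0456 for OFL and 0.0450 for all libraries. DESeq2 1.42.0, other scaling, filters, a replicate block, a non-robust fit and leaving out each library were alternatives.

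The genes, the lists and the tests were chosen with earlier results of these data known. Text names all 8 genes in every comparison, Arnt2, Npas4, up to 3 called genes of each list with the smallest p (or the gene with the smallest p), and for each of the 8 the 2 most alike genes; 1 gene that this rule names is not reported here. Lists are given by counts and medians with no test of the list. Egln3, Ahrr and the Per genes stand in 2 lists each.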

Additional observations from a re-analysis of the deposited data

Results flagged for a closer look

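The level of Npas4 in naive AKR was set apart by 1 library: replicate 4 stood at 17.7 CPM against 59.2 to 64.0 CPM in the others, a gap of 0.896 of the range of the group. Groups of 4 libraries were checked for 10 genes in both strains, 20 groups in all, of which chance alone flags about 1 in 20.

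The OFL minus naive change differed between the strains, by the test of the interaction, for 3 of the 8 genes. The interaction was -0.552 for Npas3, 0.503 for Epas1 and 0.840 for Hif3a on the log2 scale, in each case a positive value meaning a more positive change in AKR. Library set and conditioning cannot be told apart in these changes.

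Among other genes of the family and the clock targets the interaction was 0.659 for Per2, 0.255 for Per3, 0.293 for Arntl and 0.383 for Bhlhe41. That of Arntl was no longer called in 10 of 22 alternatives, where the adjusted p reached 0.138. HIF targets gave 0.577 for Slc2a1, -0.277 for Tfrc, which encodes the transferrin receptor, and 0.494 for P4ha1, a collagen prolyl hydroxylase that lost its call without B6N OFL replicate 1 (adjusted p = 0.0505) or replicate 3 (0.0612). The chaperone Hsp90ab1 gave 0.245.

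Markers of vessel cells and interneurons were flagged as well. The interaction was 0.537 for Ly6c1, -0.421 for Tek and 0.244 for Flt1 among endothelial markers, -0.281 for Vtn and -0.311 for Pdgfrb among mural cell markers, and -0.315 for Adarb2 among interneuron markers. The calls of Tek, Flt1, Vtn and Pdgfrb were lost in 7, 11, 13 and 14 of 22 alternatives and that of Ly6c1 in 1, without AKR OFL replicate 2 (adjusted p = 0.0575).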

How the results depend on the processing

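For the 8 genes, 789 of 800 recomputed differences kept their direction and their side of the threshold. The direction turned in 3, none of them called: Hif1a between OFL strains without B6N OFL replicate 1 (-0.0096, in a leave-one-out range up to 0.046), and the interaction of Npas1 without AKR OFL replicate 1 (-0.0022) and B6N OFL replicate 3 (-0.015, in a range up to 0.11). Of the 8 genes, the number called between strains after OFL was 2 with no filter on low counts and 1 to 3 when a library was left out. It was 7 to 8 for OFL minus naive in B6N, and stayed at 5 (naive strains), 8 (OFL minus naive in AKR) and 3 (interaction). The cause was not tested. Calls of other named genes were lost in 108 and gained in 16 of 3466 recomputed differences.

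Leaving out a library moved the number of all genes called to between 5714 and 6799 for naive strains, 2019 and 3608 for OFL strains, 15527 and 16282 for OFL minus naive in AKR, 15507 and 16249 in B6N, and 768 and 1300 for the interaction. Same-numbered libraries did not deviate together (r between -0.043 and 0.044). The labels do not say whether the numbers pair samples, and these correlations cannot settle it. With the replicate block the counts were 6305, 3072, 15744, 15701 and 1046 in the same order, and the block changed no call of the 8 genes. Median differences of all genes moved by under 0.06 with the scaling. Depth limits Npas1 and Hif3a most, which had as few as 100 and 111 reads after OFL.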

Other observations

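Genes within 500 kb of each of the 8 genes were counted as a description of the region. Around Npas1, 18 of 29 neighbours tested (62.1%) differed between the naive strains, 9 higher and 9 lower in AKR, and around Hif3a, on the same chromosome, 9 of 17 (52.9%), 3 higher and 6 lower, beside 37.7% of all genes. Around Epas1 it was 4 of 9 (44.4%) and around Hif1a 3 of 8 (37.5%). Around Arnt, which did not differ, it was 13 of 48 (27.1%), and around Npas2, which did not differ either, 2 of 13 (15.4%). Npas3 and Ahr had 3 neighbours tested each, of which 1 differed. After OFL, 9 of 28 neighbours of Npas1 (32.1%), 5 of 16 of Hif3a (31.2%), 2 of 7 of Hif1a (28.6%) and 1 of 3 of Npas3 differed, beside 16.8% of all genes. The share was below that of all genes around Arnt, at 5 of 44 (11.4%), Npas2, at 2 of 14 (14.3%), Epas1, at 1 of 8 (12.5%), and Ahr, at 0 of 4. Neighbours of Npas1 include genes that also neighbour Hif3a, and nearby genes are not independent.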
